A study of Mus musculus with 15 samples.

Results

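The genes described here are 8 enzymes that desaturate or lengthen fatty acids: Fads1, Fads2, Fads3, Scd2, Elovl1, Elovl2, Elovl3 and Elovl5. They were taken by gene symbol from the deposited count table, and all 8 were found among its 26264 genes. The libraries are mouse liver mRNA from 5 groups of 3 libraries each. SD-NS and HFD-NS are the groups named without an agent, the second on a high-fat diet used in the series to model MASLD, the fatty liver disease that goes with metabolic dysfunction. HFD-337 is read here as the group given Gc337, an agent that knocks down STK25, and HFD-Res as the group given resmetirom, and HFD-338 is an additional high-fat diet group whose label does not say what 338 is. All 4 HFD groups share the diet. SD and NS are not spelled out in the labels, and age, sex, strain, dose and duration are not given in the sources used here. The labels give each library its own number but do not say that the libraries came from separate animals, so p-values measure the spread between these libraries, which may in part be technical.

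A fatty acid desaturase places a double bond in an acyl chain with electrons passed on by cytochrome b5, and an ELOVL elongase carries out the rate-limiting condensation of the cycle that adds carbon to the chain. In liver, FADS2, ELOVL5, FADS1 and ELOVL2 act in turn to make long polyunsaturated fatty acids, such as arachidonic acid and docosahexaenoic acid, from the essential fatty acids of the diet. Stearoyl-CoA desaturases make monounsaturated chains, and ELOVL1 and ELOVL3 lengthen saturated and monounsaturated chains. The transcription factors SREBP-1c, LXR and PPARα are known regulators of several of these genes. STK25 is a serine/threonine kinase studied for its part in hepatic lipid storage, and resmetirom is an agonist of thyroid hormone receptor β.

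Fads1, Fads2, Fads3, Scd2 and Elovl3 lie on chromosome 19 in the mm39 coordinates of the count table, the first 3 of them together. Fads3 (19:10018912-10037035, plus strand) and Fads2 (19:10040129-10078867, minus strand) lie end to end with 3.09 kb between them, and Fads1 (19:10160252-10174236, plus strand) starts 81.4 kb beyond the start of Fads2. Scd2 (19:44282115-44295301) and Elovl3 (19:46120336-46124133) lie farther along. Elovl1 is at 4:118285290-118290149, Elovl2 at 13:41335858-41373879 and Elovl5 at 9:77824647-77891801.

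Promoter sequence was taken from RefSeq, build GRCm38.p6, as the 250 bases before an annotated transcript start; 5 of the 8 genes matched, with 7 windows, and Fads1, Scd2 and Elovl3 had no entry. The windows of Fads2 and Fads3 are shown because these neighbours moved in opposite directions in HFD-337 and HFD-338, and that of Elovl5 because it was the most abundant of the 8 transcripts per length in SD-NS and fell in both groups. Each is written 5′ to 3′ on the strand of the gene, and capitals mark CCAAT or CACGTG on either strand (ATTGG is CCAAT on the other strand).
Fads2, chr19:10101504-10101753, minus strand: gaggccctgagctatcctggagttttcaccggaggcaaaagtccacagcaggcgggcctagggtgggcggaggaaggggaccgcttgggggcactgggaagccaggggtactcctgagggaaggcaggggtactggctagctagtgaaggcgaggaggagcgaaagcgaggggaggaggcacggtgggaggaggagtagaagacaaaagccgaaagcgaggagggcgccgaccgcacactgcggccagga
Fads3, chr19:10041298-10041547, plus strand: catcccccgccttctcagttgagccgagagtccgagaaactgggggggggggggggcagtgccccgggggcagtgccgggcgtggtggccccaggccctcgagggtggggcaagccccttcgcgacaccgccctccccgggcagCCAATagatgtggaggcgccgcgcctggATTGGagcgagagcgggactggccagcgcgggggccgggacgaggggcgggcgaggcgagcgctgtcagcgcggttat
Elovl5, chr9:77917115-77917364, plus strand: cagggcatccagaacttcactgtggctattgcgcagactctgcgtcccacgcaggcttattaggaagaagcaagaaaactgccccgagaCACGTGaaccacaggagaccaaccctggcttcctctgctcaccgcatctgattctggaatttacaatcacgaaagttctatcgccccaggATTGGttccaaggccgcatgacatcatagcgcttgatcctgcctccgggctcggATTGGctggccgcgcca
The Fads2 window held neither motif. That of Fads3 held CCAAT with its first base at -106 and at -78, counted with the base before the start as -1. That of Elovl5 held CCAAT at -71 and -17 and CACGTG, the core of an E-box, at -161. Over 32851 RefSeq windows of the same length, 33.8% held CCAAT and 6.02% held CACGTG. The letters TCACNCCAC, a form of the sterol regulatory element, were in 1.05% of all windows and in none of the 7 of these genes. A match here is only a run of letters.

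Counts per library summed to between 3873903 and 9797743, and 13189 genes, all 8 members included, had enough counts to be tested. Stk25 stood at 43.7 CPM or more in every SD-NS and HFD-NS library, at 37.7 to 46.9 CPM in HFD-Res, at 20.55 to 22.0 CPM in HFD-338 and at 14.6 to 19.1 CPM in HFD-337, so the gene was low in both groups. CPM values are counts scaled to library size with TMM factors. Hepatocyte markers summed to between 83380 and 152900 CPM in all 15 libraries. Markers of bile duct epithelium (8 genes, among them Spp1, Sox9 and Epcam) summed to 48.2 to 58.8 CPM in SD-NS, 47.7 to 63.1 in HFD-NS, 74.2 to 86.3 in HFD-Res, 583.5 to 737.5 in HFD-338, and 62.0, 92.95 and 240.2 in HFD-337; the last value is that of replicate 23. Of the 6 that could be tested, all 6 rose in HFD-338 against HFD-NS. Of 8 sinusoidal endothelium markers, 8 fell in HFD-337 and 7 fell in HFD-338; they summed to 207 to 257 CPM in HFD-NS, 71.2 to 89.2 CPM in HFD-337 and 83.8 to 155 CPM in HFD-338. Among all genes tested, 18.9% were higher and 17.9% lower in HFD-338 against HFD-NS, and 22.8% were lower in HFD-337. In whole tissue, fewer cells of a type and less RNA per cell cannot be told apart.

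**Figure D1:**
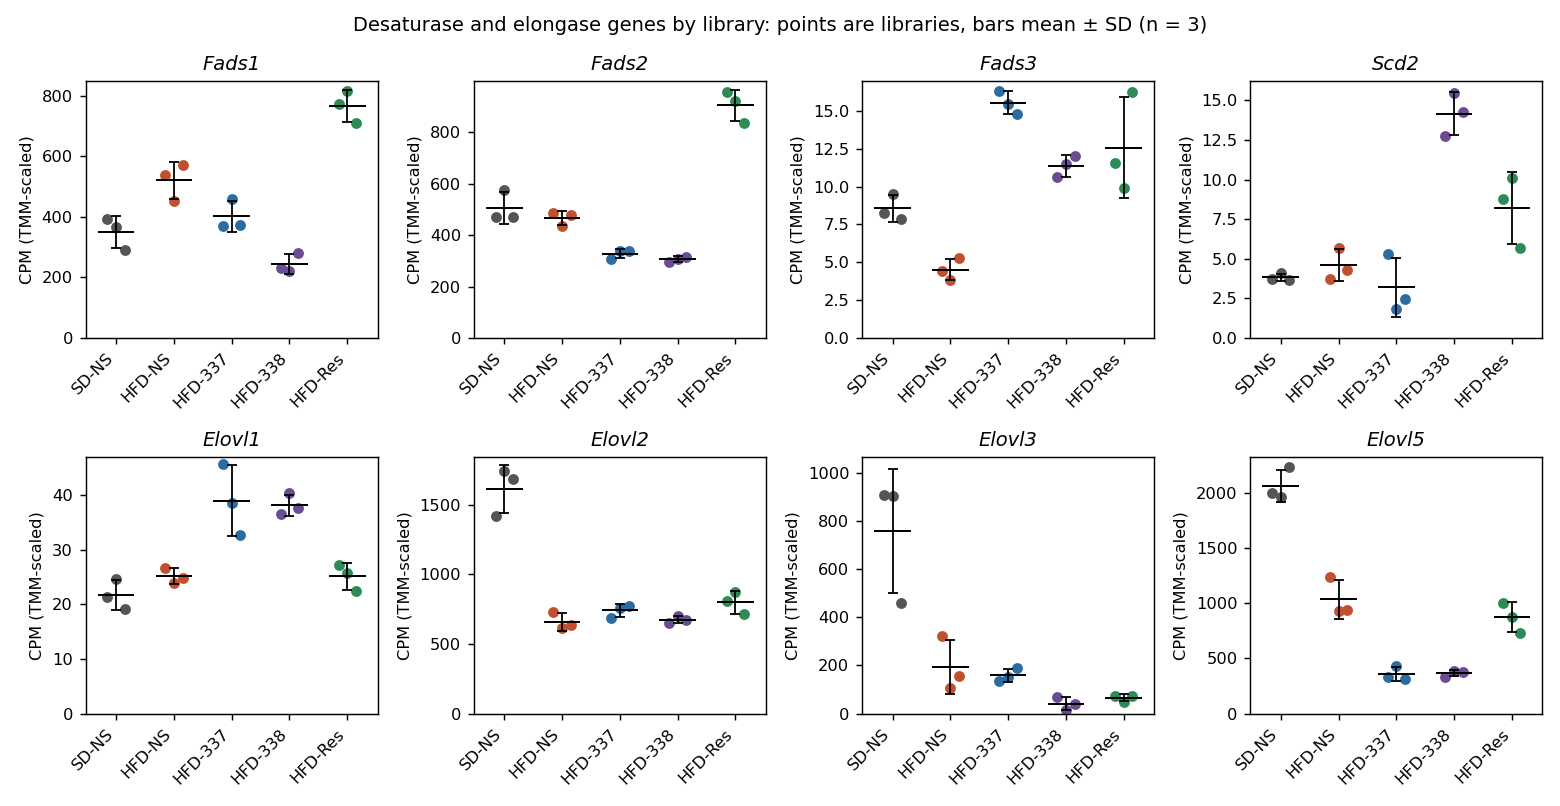
TMM-scaled CPM (vertical axis, linear, from 0) of each of the 8 genes in the 5 groups (horizontal axis); points are libraries and bars are mean ± SD of 3 libraries. Fads1 and Fads2 are highest in HFD-Res, Elovl2 and Elovl5 in SD-NS, and Scd2 in HFD-338.

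In HFD-NS, Elovl5 stood at 723 ± 115 TPM (a level per transcript length, computed from the counts and summed exon lengths; SD, n = 3), Elovl2 at 324 ± 27.5 TPM, Fads2 at 312 ± 9.62 TPM and Fads1 at 292 ± 25.1 TPM. Elovl3 was at 190 ± 108 TPM there, and Elovl1, Fads3 and Scd2 stood at 25.2 ± 1.13, 2.68 ± 0.343 and 1.65 ± 0.420 TPM. In SD-NS Elovl3, at 687 ± 218 TPM, had a higher mean than Fads2 and Fads1, at 313 ± 33.6 and 181.5 ± 22.9 TPM. The least abundant pair rested on few reads: Scd2 had 12 to 125 counts in a library and Fads3 had 28 to 134, while Elovl5 had 1558 to 15015.

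The diet comparison, HFD-NS against SD-NS, asks what the high-fat diet went with in livers given no named agent. Of the 8 genes, 1 rose and 4 fell (all adjusted p-values are from edgeR's quasi-likelihood test over 13189 genes with Benjamini-Hochberg adjustment, called under 0.05). Among all genes tested, 28.1% were called, 12% higher and 16.1% lower. The median log2 change of the 8 was -0.51, against -0.02 over all genes tested. On the TPM scale with limma, 64.4% of the genes called were higher, in place of 42.8%, and the 5 calls of these genes kept their direction.

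In HFD-337 against HFD-NS, which asks what the STK25 agent changed on the same diet, 2 of the 8 rose and 3 fell, where 47.2% of all genes were called, 24.4% higher and 22.8% lower. In HFD-338 against HFD-NS, 3 rose and 4 fell, where 36.8% were called, 18.9% higher and 17.9% lower. In HFD-Res against HFD-NS, 3 rose and 0 fell by edgeR (3 of the 8 fitted changes were negative, 6 of the 8 had an unadjusted p under 0.05, and DESeq2 called Elovl3 lower), where 13% were called, 6.22% higher and 6.74% lower. These comparisons share the HFD-NS libraries. The members' median log2 changes were -0.33, -0.29 and 0.42, against 0.03, 0.00 and 0.01 over all genes tested. On the TPM scale with limma, the share of calls that were higher was 38.2% for HFD-337, in place of 51.7%, and 67.2% for HFD-338, in place of 51.4%; that scale moved the median of all genes by -0.11 in HFD-337 and by 0.11 in HFD-338.

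**Figure D2:**
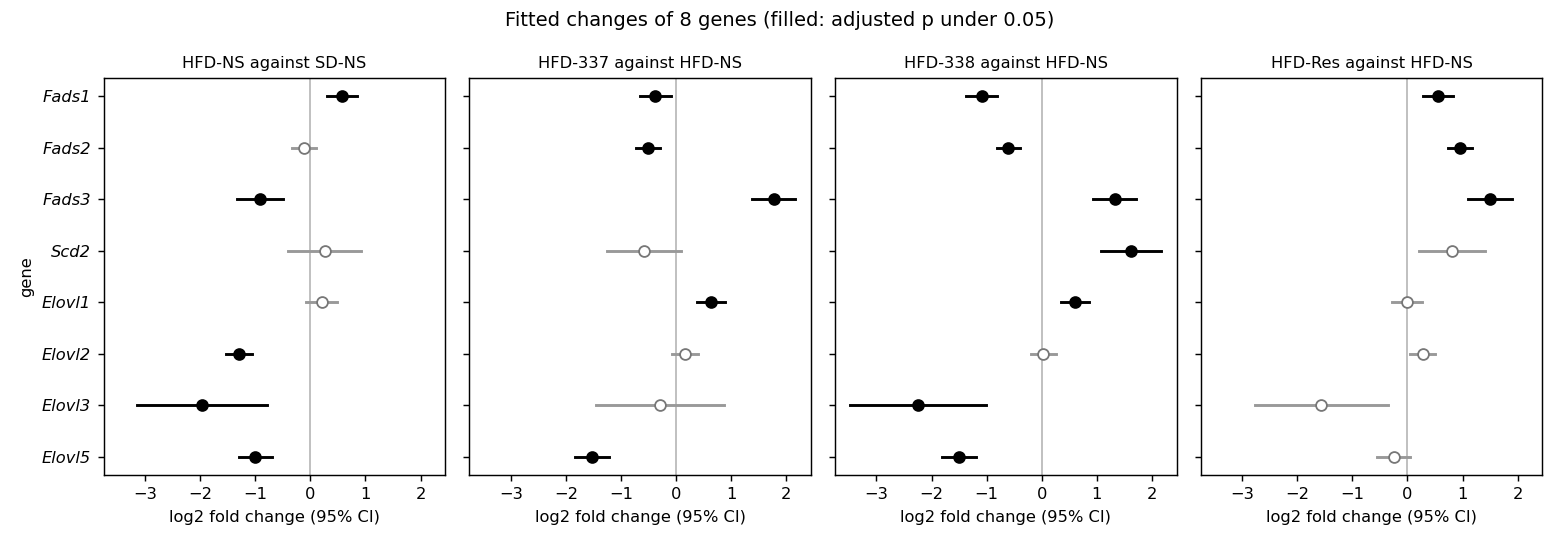
Fitted log2 fold change (horizontal axis) with its 95% confidence interval for the 8 genes (vertical axis) in the 4 comparisons with HFD-NS; filled points passed an adjusted p of 0.05. Elovl5 fell by 1.53 in HFD-337 and fell by 1.50 in HFD-338, and Fads3 was higher in all 3 treated groups.

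Fads2 encodes the desaturase that acts first on linoleic and α-linolenic acid. In SD-NS it stood at 469, 576 and 471 CPM, and in HFD-NS at 487, 435 and 478 CPM. The HFD-337 libraries were at 308.5, 337.4 and 339.5 CPM, and the HFD-338 libraries at 296, 309 and 317 CPM. Every library of these 2 groups was below every SD-NS and HFD-NS library. In HFD-Res it was at 956, 921 and 837 CPM, above every other library. Fads2 did not pass the test for the diet (log2 change -0.11, 95% interval -0.33 to 0.10, adjusted p = 0.431). It fell by 0.51 on the log2 scale in HFD-337 (SE 0.10, adjusted p = 0.000447), fell by 0.60 in HFD-338 (SE 0.10, adjusted p = 0.000145) and rose 1.94-fold in HFD-Res (log2 change 0.95, SE 0.10, adjusted p = 2.60e-06). In order of mean level the groups ran HFD-Res, SD-NS, HFD-NS, HFD-337, HFD-338, and SD-NS and HFD-NS did not differ beyond their spread, nor did HFD-337 and HFD-338 (log2 difference 0.10, 95% interval -0.11 to 0.31).

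Fads1, the desaturase of the later step that yields arachidonic and eicosapentaenoic acid, shared the top place of HFD-Res but not the rest of that order. Its SD-NS libraries were at 392, 367 and 289 CPM and its HFD-NS libraries at 537, 452 and 572 CPM, with no overlap. The HFD-338 libraries, at 230, 222 and 281 CPM, were below all others. The HFD-337 libraries were at 370, 459 and 374 CPM, and 1 of them, replicate 26, was above the lowest HFD-NS library. The HFD-Res libraries were at 772, 815 and 709.9 CPM, above all others. Fads1 rose 1.49-fold with the diet (log2 change 0.57, SE 0.13, adjusted p = 0.00334) and 1.47-fold in HFD-Res (0.56, SE 0.13, adjusted p = 0.00686). It fell to 47.0% of the HFD-NS level in HFD-338 (log2 change -1.09, SE 0.13, adjusted p = 6.16e-06). In HFD-337 it fell by 0.37 on the log2 scale (SE 0.13, adjusted p = 0.0252), and that call was lost without any 1 of 4 libraries: HFD-NS replicate 12 (adjusted p = 0.0650) or 16 (0.104), or HFD-337 replicate 23 (0.0793) or 27 (0.0671). In order of mean level the groups ran HFD-Res, HFD-NS, HFD-337, SD-NS, HFD-338, and HFD-337 and SD-NS did not differ beyond their spread (adjusted p = 0.210).

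The ratio of Fads1 to Fads2 within a library therefore varied between groups. By TPM it was 0.585 ± 0.103 in SD-NS, 0.935 ± 0.0658 in HFD-NS and 1.03 ± 0.110 in HFD-337 (SD, n = 3). In HFD-338 it was 0.668 ± 0.0711 and in HFD-Res 0.712 ± 0.0325. The SD-NS, HFD-338 and HFD-Res libraries, at 0.516 to 0.745, all lay below the HFD-NS and HFD-337 libraries, at 0.873 to 1.14. Among the 8 genes this pair was nonetheless the closest in pattern, with a mean absolute difference of 0.28 in centred log2 CPM over the 15 libraries.

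Elovl5, the elongase between the FADS2 and FADS1 steps, was at 1999, 1961 and 2230 CPM in SD-NS. The HFD-NS libraries were at 1237, 926.5 and 939 CPM and the HFD-Res libraries at 1006, 873 and 734 CPM. The HFD-337 libraries stood at 329.8, 429.5 and 316 CPM and the HFD-338 libraries at 335.5, 387 and 374 CPM. The libraries thus fell into 3 levels that did not overlap: SD-NS, then HFD-NS with HFD-Res, then HFD-337 with HFD-338. Elovl5 fell to 50.1% with the diet (SE 0.14 on the log2 scale, adjusted p = 5.59e-05). It fell further to 34.7% of HFD-NS in HFD-337 (log2 change -1.53, SE 0.15, adjusted p = 1.97e-07) and to 35.3% in HFD-338 (log2 change -1.50, SE 0.15, adjusted p = 5.05e-07). Between HFD-337 and HFD-338 the log2 difference was -0.03 (95% interval -0.33 to 0.27, adjusted p = 0.883), and for HFD-Res against HFD-NS it was -0.25 (95% interval -0.55 to 0.05, adjusted p = 0.291).

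Elovl2, which lengthens the longer polyunsaturated chains on the way to docosahexaenoic acid, was high in SD-NS alone. Its SD-NS libraries were at 1415, 1739 and 1680 CPM, and the 12 libraries of the HFD groups lay between 611 and 872 CPM. It fell to 41.0% with the diet (log2 change -1.29, SE 0.11, adjusted p = 3.12e-07). Against HFD-NS the log2 change was 0.17 in HFD-337 (95% interval -0.07 to 0.40, adjusted p = 0.231), 0.03 in HFD-338 (-0.20 to 0.26, adjusted p = 0.850) and 0.27 in HFD-Res (0.04 to 0.51, adjusted p = 0.122), and none of the 3 passed the test. Among the 4 HFD groups, no neighbours in the order of mean level differed beyond their spread. The highest of them, HFD-Res, did differ from SD-NS above it (adjusted p = 1.62e-06).

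The elongases of consecutive polyunsaturated steps thus had different ratios in different groups. Elovl5 to Elovl2 by TPM was 1.84 ± 0.208 in SD-NS, 2.22 ± 0.161 in HFD-NS and 1.56 ± 0.190 in HFD-Res. In HFD-337 it was 0.691 ± 0.111 and in HFD-338 0.772 ± 0.0289. The 6 libraries of HFD-337 and HFD-338, at 0.583 to 0.805, were the only ones in which Elovl2 exceeded Elovl5 per length.

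**Figure D3:**
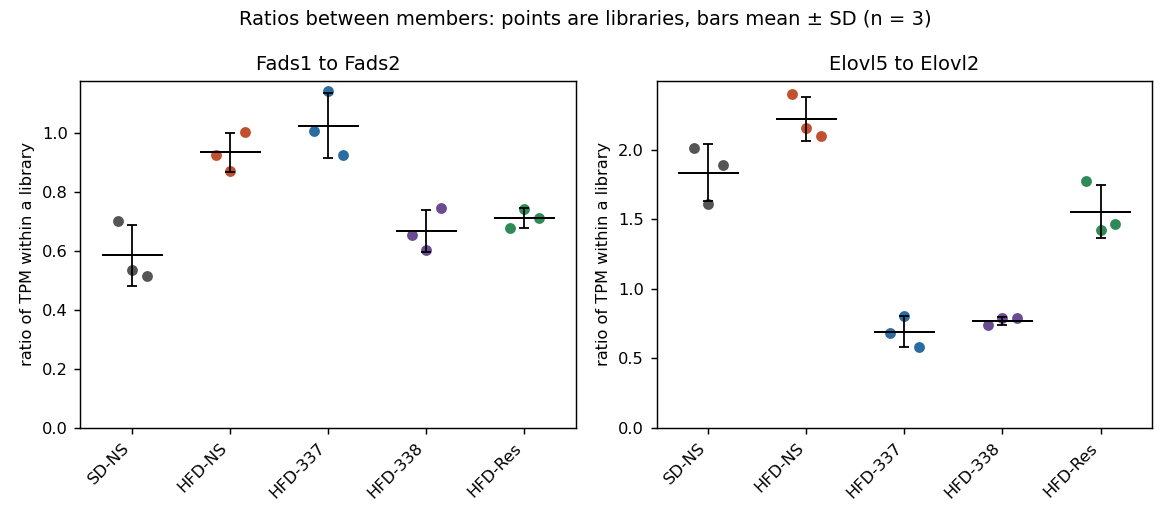
Ratio of TPM within each library (vertical axes, linear, from 0) for Fads1 to Fads2 and for Elovl5 to Elovl2 in the 5 groups (horizontal axis); points are libraries and bars are mean ± SD of 3 libraries. Fads1 to Fads2 is 0.935 in HFD-NS and 1.03 in HFD-337 on average and 0.712 or less in the other groups, and Elovl5 to Elovl2 is under 1 in every HFD-337 and HFD-338 library.

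Fads3, a FADS-family enzyme that desaturates the sphingoid base of ceramides, was lowest in HFD-NS. It stood at 8.25, 9.53 and 7.88 CPM in SD-NS and at 4.44, 3.85 and 5.27 CPM in HFD-NS. In HFD-337 it was at 16.3, 15.45 and 14.8 CPM, and in HFD-338 at 10.6, 11.5 and 12.04 CPM. The HFD-Res libraries were at 11.6, 9.89 and 16.3 CPM. Every library of these 3 groups was above every library of SD-NS and HFD-NS. Fads3 fell to 52.8% with the diet (log2 change -0.91, SE 0.20, adjusted p = 0.00239). It rose 3.44-fold in HFD-337 (log2 change 1.77, SE 0.19, adjusted p = 5.31e-07), 2.52-fold in HFD-338 (1.32, SE 0.19, adjusted p = 2.61e-05) and 2.78-fold in HFD-Res (1.49, SE 0.19, adjusted p = 2.12e-05). In HFD-337 and HFD-338 it rose while its neighbour Fads2 fell, so Fads3 to Fads2 by TPM went from at most 0.00980 in HFD-NS to at least 0.0388 in HFD-337 and 0.0319 in HFD-338. By mean level the order was HFD-337, HFD-Res, HFD-338, SD-NS, HFD-NS, and of these neighbours SD-NS with HFD-NS passed the test, while HFD-338 with SD-NS did not (adjusted p = 0.0746).

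Scd2, a stearoyl-CoA desaturase known mainly from brain and from the newborn, was low in every group. It was at 3.73, 4.08 and 3.66 CPM in SD-NS and at 3.74, 5.71 and 4.32 CPM in HFD-NS. In HFD-338 it was at 12.8, 15.5 and 14.3 CPM, above every other library. The HFD-Res libraries were at 8.78, 10.1 and 5.67 CPM, and replicate 34, the lowest, lay within the HFD-NS range. The HFD-337 libraries were at 5.32, 1.84 and 2.44 CPM, with replicate 23 apart from the others. Scd2 rose 3.09-fold in HFD-338 (log2 change 1.63, SE 0.26, adjusted p = 9.05e-05). The diet (log2 change 0.26, adjusted p = 0.586), HFD-337 (-0.59, adjusted p = 0.140) and HFD-Res (0.81, adjusted p = 0.0700) did not pass the test. Single libraries decided the last pair: without HFD-337 replicate 23 the change was -1.13 (adjusted p = 0.00656), and without HFD-Res replicate 34 it was 1.04 (adjusted p = 0.0355). Mean levels ran HFD-338, HFD-Res, HFD-NS, SD-NS, HFD-337, and among neighbours HFD-338 and HFD-Res passed the test (adjusted p = 0.0158).

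Scd2 was highest in the group with the most bile duct marker RNA, which was mostly Spp1 on average. Within HFD-337, Scd2 was highest in replicate 23, whose bile duct markers summed to 240.2 CPM. In HFD-337 replicate 27, Scd2 was at 2.44 CPM with a bile duct sum of 92.95 CPM. HFD-Res replicates 29 and 30 had Scd2 at 8.78 and 10.1 CPM with bile duct sums of 86.3 and 78.9 CPM. Markers of cycling cells (Mki67, Top2a, Ccnb1, Cdk1 and Birc5) also rose in HFD-338, 5 of 5, and of 9 stellate cell markers 4 rose and 1 fell there, while 5 fell in HFD-337. Of 10 Kupffer cell and macrophage markers, 4 rose in HFD-338, and 1 rose and 2 fell in HFD-337. The 10 summed to 146 to 444 CPM in HFD-338 against 152 to 197 CPM in HFD-NS. Among all genes tested, 18.9% were higher and 17.9% lower in HFD-338, and 24.4% and 22.8% in HFD-337. Cycling markers summed to 8.195 to 10.9 CPM in HFD-NS, 53.1 to 84.6 CPM in HFD-338 and 32.7 CPM in HFD-337 replicate 23. In HFD-Res they summed to 4.07 to 6.42 CPM. Stellate markers summed to 421 to 516 CPM in HFD-NS, 810 to 1368 CPM in HFD-338 and 486 to 530 CPM in HFD-Res. The genes closest to Scd2 in pattern over the 15 libraries were Timp2, Wls and Rnf150, with mean absolute differences of 0.26 in centred log2 CPM, where the median over 12315 genes compared was 0.78. The part of these cell types in the Scd2 result was not tested. Scd1, the main stearoyl-CoA desaturase of adult liver, went the other way in HFD-338, from 9270 ± 3594 CPM in HFD-NS to 1980 ± 1048 CPM (log2 change -2.23, adjusted p = 0.0132).

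**Figure D4:**
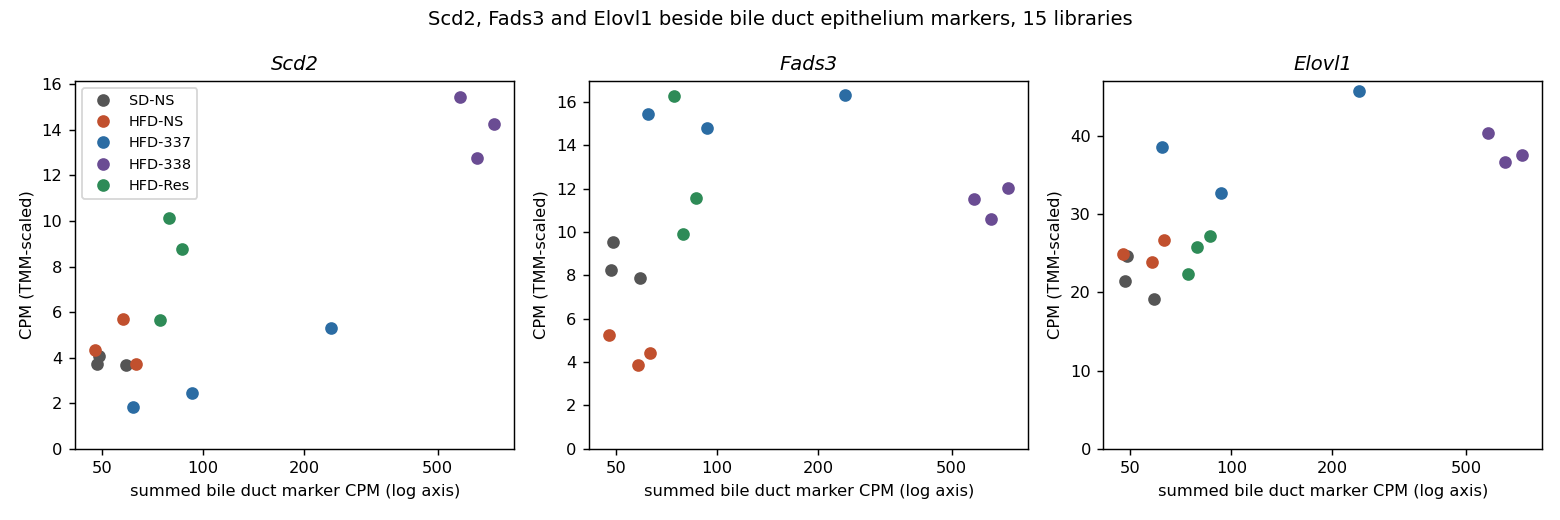
TMM-scaled CPM (vertical axes, linear, from 0) of Scd2, Fads3 and Elovl1 against the summed CPM of 8 bile duct markers (horizontal axis, log scale) in 15 libraries coloured by group. Spp1 made up most of that sum on average. The 3 HFD-338 libraries stand at 583.5 CPM or more of bile duct markers with the highest Scd2, while Fads3 is higher than there in the HFD-337 libraries at 62.0 and 92.95 CPM.

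Elovl1, which makes the very long saturated and monounsaturated chains used in sphingolipids, had 2 levels. The SD-NS libraries were at 21.4, 24.7 and 19.1 CPM, the HFD-NS libraries at 26.7, 23.8 and 24.9 CPM and the HFD-Res libraries at 27.2, 25.8 and 22.4 CPM. The HFD-337 libraries, at 45.7, 38.6 and 32.7 CPM, and the HFD-338 libraries, at 36.6, 40.3 and 37.6 CPM, were all above them. Elovl1 rose 1.55-fold in HFD-337 (log2 change 0.63, SE 0.12, adjusted p = 0.000388) and 1.52-fold in HFD-338 (0.60, SE 0.12, adjusted p = 0.000814). The log2 change was 0.20 with the diet (95% interval -0.07 to 0.48, adjusted p = 0.269) and -0.01 in HFD-Res (95% interval -0.28 to 0.26, adjusted p = 0.976). Mean levels ran HFD-337, HFD-338, HFD-NS, HFD-Res, SD-NS, with a difference between neighbours past the test at HFD-338 and HFD-NS. Replicate 23 of HFD-337 was the highest library, and without it the HFD-337 call stayed (log2 change 0.51, adjusted p = 0.003). Exons of Cdc20 overlap 2.68% of the exon length of Elovl1. Counting used no strand, so reads in that overlap cannot be told apart. After Fads1 with Fads2, the pair of these genes closest in pattern was Fads3 with Elovl1, with a mean absolute difference of 0.41. Elovl1 spans 4.86 kb, and in HFD-337 against HFD-NS 40.0% of all genes under 10 kb were higher and 9.88% lower, against 20.6% and 24.6% of genes of 10 to 100 kb, the span class of every other member except Elovl3. In HFD-338 against HFD-NS, 15.8% of genes under 10 kb were higher and 18.8% lower, against 19.4% and 16.7% of genes of 10 to 100 kb. The part of gene span in the HFD-337 and HFD-338 results was not tested.

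Elovl3, an elongase of saturated and monounsaturated chains known in mouse liver for a daily rhythm and for higher expression in males, varied most. It was at 909, 905 and 460 CPM in SD-NS and at 321, 105 and 155 CPM in HFD-NS. In HFD-337 it was at 134, 153 and 189 CPM. The HFD-338 libraries were at 68.2, 15.2 and 38.7 CPM and the HFD-Res libraries at 73.2, 48.3 and 74.5 CPM. All SD-NS libraries were above all HFD-NS libraries, and all libraries of HFD-338 and HFD-Res were below them. Elovl3 fell to 25.6% with the diet (log2 change -1.97, SE 0.53, adjusted p = 0.0194), a call lost without SD-NS replicate 6 (adjusted p = 0.0562) or 7 (0.0617), without HFD-NS replicate 13 (0.0661) or 16 (0.0738), and when SD-NS and HFD-NS were fitted by themselves (0.0669). It was 4.76-fold lower in HFD-338 than in HFD-NS (log2 change -2.25, SE 0.55, adjusted p = 0.00911), a call lost when these groups were fitted by themselves (0.0767), and without HFD-338 replicate 17 that change was -2.85. In HFD-Res the change of -1.56 missed the test (SE 0.54, adjusted p = 0.0938) although the groups did not overlap, and passed it with DESeq2 (adjusted p = 0.0239). In HFD-337 the change was -0.29 (95% interval -1.45 to 0.87, adjusted p = 0.679). Mean levels ran SD-NS, HFD-NS, HFD-337, HFD-Res, HFD-338, and past SD-NS and HFD-NS no pair of neighbours passed the test.

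Clock genes differed between the same libraries. Of 13 tested, 8 rose and 4 fell with the diet, 4 rose and 3 fell in HFD-337, and 2 fell in HFD-338. Among all genes tested, 12% were higher and 16.1% lower with the diet. The shares were 24.4% and 22.8% in HFD-337, and 17.9% were lower in HFD-338. Dbp, a clock output gene, was at 3.06 to 3.11 CPM in SD-NS, and at 7.47, 19.7 and 57.7 CPM in HFD-NS. Elovl3 was highest in the HFD-NS library with the least Dbp, and at 105 and 155 CPM in those with 19.7 and 57.7 CPM. Exons of another gene overlap 32.1% of the exon length of Dbp, so reads in that overlap cannot be told apart. Dbp was at 74.1 to 103.5 CPM in HFD-337, at 46.8 to 52.7 CPM in HFD-Res and at 6.43 to 20.8 CPM in HFD-338, where Elovl3 was lowest on average. The hour of tissue collection is not given in the sources used here. Of 9 other male-biased liver genes, 2 fell with the diet, 4 rose in HFD-337, 2 rose in HFD-338 and 4 fell in HFD-Res, beside 16.1% lower, 24.4% higher, 18.9% higher and 6.74% lower among all genes tested. The part of either list in the Elovl3 result was not tested. The gene closest to Elovl3 in pattern was Pitx3, its neighbour, whose exons overlap 0.456% of the exon length of Elovl3; counting used no strand, so reads in the overlap cannot be told apart.

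HFD-337 differed from HFD-338 in 4 of the 8 genes, where 58.4% of all genes were called, 28.8% higher and 29.6% lower. Fads1 was higher in HFD-337 (log2 difference 0.72, SE 0.13, adjusted p = 0.000163), as were Elovl3 (1.96, SE 0.55, adjusted p = 0.0109) and Fads3 (0.45, SE 0.17, adjusted p = 0.0282), and Scd2 was lower (-2.21, SE 0.29, adjusted p = 4.80e-06). The Fads3 difference is the least firm: its adjusted p was 0.408 on the TPM scale and 0.0861 with DESeq2, and between 0.0589 and 0.0916 without HFD-337 replicate 23 or 26 or HFD-338 replicate 17 or 18. The Elovl3 difference was 2.56 without HFD-338 replicate 17. On the TPM scale 29.3% of the genes called were higher, in place of 49.3%, and the median of all genes moved by -0.23; with DESeq2 it moved by -0.11.

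Against HFD-Res, HFD-337 was lower in 4 genes and higher in 1, where 47.6% of all genes were called, 24.3% higher and 23.3% lower. Fads2 was lower (log2 difference -1.46, SE 0.10, adjusted p = 3.83e-09), as were Scd2 (-1.39, adjusted p = 0.00133), Elovl5 (-1.28, adjusted p = 1.01e-06) and Fads1 (-0.93, adjusted p = 1.31e-05), and Elovl1 was higher (0.64, adjusted p = 0.000456). HFD-338 was lower than HFD-Res in 3 genes and higher in 2, where 43.1% were called, 22.2% higher and 20.9% lower. Fads1 (log2 difference -1.65, adjusted p = 3.28e-08), Fads2 (-1.56, adjusted p = 2.25e-09) and Elovl5 (-1.25, adjusted p = 2.03e-06) were lower and Elovl1 (0.61, adjusted p = 0.000827) and Scd2 (0.82, adjusted p = 0.0158) higher. The Scd2 call did not survive leaving out HFD-338 replicate 18 (adjusted p = 0.0505) or HFD-Res replicate 34 (0.118), and without that HFD-Res library Fads3 was called higher in HFD-337 than in HFD-Res (log2 difference 0.53, adjusted p = 0.0248). On the TPM scale the share of calls that were higher was 39.2% for HFD-337, in place of 51.0%, and 66.8% for HFD-338, in place of 51.5%, with the median of all genes moved by -0.10 and by 0.12.

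Calls among the enzymes that work with these 8 went in both directions. Among all genes tested, 12% were higher and 16.1% lower with the diet, and 24.4% and 22.8% in HFD-337. The shares were 18.9% and 17.9% in HFD-338, and 6.22% and 6.74% in HFD-Res. The lists below were not tested against these shares. Of the 6 elongation cycle partners, 1 fell with the diet, 1 rose and 1 fell in HFD-337, and 1 rose and 2 fell in HFD-338. Hacd3 fell with the diet (log2 change -0.68, adjusted p = 0.000292). Hsd17b12, the ketoacyl reductase of the cycle, fell by 1.21 in HFD-337 and fell by 0.54 in HFD-338, while the dehydratase gene Hacd2 rose in HFD-337 (0.42) and its relative Hacd4 rose in HFD-338 (1.12). Of 5 genes tested for cytochrome b5 and its reductases, 3 rose with the diet, and 1 rose and 2 fell in HFD-337. Of the same 5, 1 rose and 3 fell in HFD-338, and 1 rose and 2 fell with resmetirom. Cyb5r3 rose with the diet (0.94), and Cyb5r1 rose against HFD-NS in all 3 other HFD groups, by 0.98 in HFD-Res, 1.03 in HFD-338 and 1.20 in HFD-337 on the log2 scale. Cyb5r1 was also the gene closest to Fads3 in pattern (mean absolute difference 0.26). Of 6 other desaturases and elongases tested, 2 fell with the diet, 2 fell in HFD-337, 2 rose and 1 fell in HFD-338, and 1 rose and 1 fell in HFD-Res. Scd1 fell in HFD-337 (-1.87), Elovl6, which lengthens palmitate to stearate, fell with the diet (-0.79) and rose in HFD-Res (1.94), and Elovl7 rose in HFD-338 (3.91).

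Peroxisomal genes, whose β-oxidation shortens the chains that ELOVL2 has lengthened, fell in HFD-337 and HFD-338, as Elovl5 did. Of 10 tested, 7 fell in HFD-337, 10 fell in HFD-338, 6 fell and 1 rose with the diet, and 3 rose and 3 fell in HFD-Res. Among all genes tested, 22.8% were lower in HFD-337, 17.9% in HFD-338, 16.1% with the diet and 6.74% in HFD-Res. The shares that were higher were 12% with the diet and 6.22% in HFD-Res. The median log2 change of the list was -1.11 in HFD-337 and -0.60 in HFD-338, against 0.03 and 0.00 over all genes tested. Ehhadh, a bifunctional enzyme of that pathway, fell by 3.31 with the diet and fell by 2.04 in HFD-337. The genes closest to Elovl5 in pattern were Crat, Ctcflos and Acaa1b (mean absolute differences 0.18, 0.24 and 0.25, where the median was 0.90), and Crat and Acaa1b encode a carnitine acetyltransferase and a peroxisomal thiolase.

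Calls among regulators of these genes and other targets of theirs went in both directions. Among all genes tested, 12% were higher and 16.1% lower with the diet, and 24.4% and 22.8% in HFD-337. The shares were 18.9% and 17.9% in HFD-338, and 6.22% and 6.74% in HFD-Res. The lists below were not tested against these shares. In HFD-Res, all 10 sterol targets of SREBP tested rose, with a median log2 change of 3.16, as did 6 of 7 lipogenic targets, with a median of 1.80. Srebf2 rose there (0.97, adjusted p = 1.97e-05), as did Insig1 (1.28). Srebf1 averaged 23.4 ± 1.66 CPM in HFD-Res and 28.7 ± 12.3 CPM in HFD-NS. In HFD-337 Srebf1 averaged 43.1 ± 8.59 CPM, higher than in HFD-Res (log2 difference 0.89, adjusted p = 0.0225). Of 14 regulators, 4 rose and 6 fell in HFD-337 and 1 rose and 8 fell in HFD-338, and 3 rose in HFD-Res. Ppara fell in both (-1.14 and -0.87), Mlxipl, which encodes ChREBP, rose in HFD-337 (1.24), and Hnf4a fell in HFD-338 (-0.80). With the diet, Srebf1 rose (1.40) and Insig2 fell (-1.54). Of 7 long-chain acyl-CoA synthetase and transport genes, 6 were tested: 2 fell with the diet, 3 fell in HFD-337, 1 rose and 3 fell in HFD-338, and 2 rose and 1 fell in HFD-Res. Acsl1 fell in the diet comparison and in each of the 3 other HFD groups against HFD-NS, with log2 changes of -0.92 for the diet, -1.20 in HFD-Res, -1.24 in HFD-338 and -1.52 in HFD-337. Of 5 ceramide synthases, 2 rose with the diet, 1 rose and 1 fell in HFD-337, and 1 rose and 2 fell in HFD-338. The rise in HFD-337 was that of Cers1 (1.63). Exons of another gene overlap 100% of its exon length, so its reads cannot be told apart. Cers6 rose with the diet (0.87) and fell in HFD-337 (-1.20), and Cers5 rose in HFD-338 (1.99). Of 8 genes tested that place polyunsaturated chains in phospholipids, 1 rose and 1 fell with the diet, 1 fell in HFD-337, and 2 rose and 3 fell in HFD-338. Mfsd2a, a carrier of lysophospholipids with docosahexaenoic acid, fell in HFD-337 (-1.43), and Lpcat2 rose in HFD-338 (1.95).

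The patterns nearest to the remaining members were those of Fam107b for Fads1 (mean absolute difference 0.17), Anks1 for Fads2 (0.14), Alg6 for Elovl1 (0.13) and Oplah for Elovl2 (0.14), each over 15 libraries.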

How the data were processed

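Poly(A)-selected mRNA libraries from mouse liver were measured in 5 groups of 3. The deposited table holds raw counts per gene, made by the authors with featureCounts 2.0.1 on mm39 exons, without strand and with a read counted for every gene it overlaps, per the file headers. Trim Galore 0.6.10, Bowtie 1.3.1 and STAR 2.7.10b are named in the submitters' processing notes, with no roles given. A further deposited table with 15 columns of TPM was not used, because its column names do not name the numbered libraries; the TPM values printed here were computed from the counts and the summed exon lengths.

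Counts were filtered with filterByExpr, scaled by TMM and fitted with edgeR 4.0.16 (R 4.3.3) by the robust quasi-likelihood method, with all 15 libraries in 1 fit on group, so that the groups share an estimate of the spread. The test was run in 10 pairwise contrasts, 7 of them reported as comparisons and the others used for the order of levels. P-values were adjusted by Benjamini-Hochberg over 13189 genes in each contrast and called under 0.05. The script was tested on simulated data. Fold changes come from the fit; CPM per library are TMM-scaled. Alternatives were RLE size factors, no filter, DESeq2 1.42.0, the 2 groups alone, limma 3.58.1 on log2(TPM + 1) of genes at 1 TPM or more in 3 libraries, voom with quality weights, and leaving out each library.

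The 8 genes, the pathway lists and the marker lists were chosen with earlier results of these data known. All 8 genes are named. From the lists, up to 2 rises and 2 falls per comparison could be named, by size among genes called with groups that do not overlap; Stk25, Scd1 and Elovl6 were named as checks. Likeness of pattern is the mean absolute difference in log2 CPM over 15 libraries after centring each gene on its mean. Total counts of 3873903 to 9797743 per library limit the precision of low genes.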

Additional observations from a re-analysis of the deposited data

How the results depend on the processing

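No paired analysis was possible because the groups share no replicate numbers in the labels. Of 56 fold changes (8 genes in 7 comparisons), 34 were called; 29 of these stayed called with RLE size factors, without the low-count filter, with DESeq2, in fits of 2 groups, with limma on log2(TPM + 1), with voom quality weights and without each library in turn, and 5 lost the call under at least 1 of these. None of the 34 changed sign; 9 of the 22 that were not called did. The number of the 8 genes called stayed at 4 to 5 for the diet, 4 to 5 in HFD-337, 6 to 7 in HFD-338 and 3 to 4 in HFD-Res against HFD-NS. The calls lost were those of Elovl3 with the diet and in HFD-338, Fads1 in HFD-337, Fads3 between HFD-337 and HFD-338 and Scd2 between HFD-338 and HFD-Res, with the values given above; Fads1 in HFD-337 also missed the test with voom weights (adjusted p = 0.0616). Calls gained, beside those given above, were Scd2 in HFD-Res with voom weights (adjusted p = 0.0483), Elovl2 lower in HFD-338 than in HFD-Res with voom weights (0.0448) or without HFD-Res replicate 34 (0.0455), and Elovl3 higher in HFD-337 than in HFD-Res with DESeq2 (0.0373) or in the fit of 2 groups (0.000373). Without HFD-Res replicate 34 the genes called in HFD-Res against HFD-NS went from 1709 to 1134. Where these calls change, the cause was not tested. With no low-count filter, 53.3% of the genes called with the diet were higher, in place of 42.8%. Depth limits Scd2 and Fads3 most, with as few as 12 and 28 counts in a library.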
